A study of Mus musculus with 9 samples.

Results

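The 10 genes described here encode matrix glycoproteins, crosslinking enzymes and a fibroblast protease. They are 10 of the 32285 genes in the count tables and were followed through single-nucleus RNA sequencing of mouse epididymal adipose tissue, the visceral fat depot beside the testis. They were taken from the tables by symbol, as a set chosen with earlier results of these data known: Fn1, Postn, Tnc, Tnxb, Thbs1, Fbn1, Lox, Loxl1, Loxl2 and Fap. The study pooled nuclei of 5 male C57BL/6J mice per library and made 1 library for each of its 9 diet groups, so a group had no replicate of its own. Levels are given as CPM, the unique molecular identifiers (UMIs, counts of captured RNA molecules) of a gene scaled to 1e6 UMIs of the same class of nuclei in the same library.

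The control libraries C, CC and CCC came from mice on chow that were 18, 26 and 39 weeks old. Mice of H (18 weeks old) had been given a high-fat diet (HFD) over 12 weeks, and those of HH (31 weeks old) over 25 weeks. HC mice (26 weeks old) and HHC mice (39 weeks old) lost weight on chow for 8 weeks after 12 and 25 weeks of HFD. CCH mice (30 weeks old) ate HFD for 4 weeks for the first time after chow, and HCH mice (30 weeks old) ate it for 4 weeks again after 12 weeks of HFD and 8 weeks of chow. By the study's methods the control diet was low in fat before the weight loss phase and a standard chow during it. By their ages C was taken before this phase and CC and CCC at its end, so their control diets differed. The labels call each of them chow. The library labels also carry the codes S075 (C, H, HH, CCH and HCH) and S019 (CC, CCC, HC and HHC). These codes were read as 2 sequencing sets and are called so below. The labels and methods do not state what the codes stand for, so this reading is an assumption.

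Adipose fibrosis is the build-up of matrix around fat cells, and it is laid down mainly by fibroblast-like progenitors of the stroma. Collagen fibres are assembled on a fibronectin scaffold, elastic fibres on fibrillin microfibrils, and both are made insoluble by lysyl oxidases, copper enzymes that crosslink lysines of collagen and elastin. Matricellular glycoproteins such as periostin, the tenascins and thrombospondin do not build fibres themselves but bind them, and tie them to integrins and growth factors on cells.

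After limits on genes and UMIs per nucleus and removal of doublet calls, 4007 to 12561 nuclei per library were kept, with median depths of 2067 to 3213 UMIs. Nuclei were given to 1 of 12 classes by marker genes that include none of the 10 genes, and are called progenitor-gated, adipocyte-gated and so on. Progenitor-gated nuclei (Pdgfra, Dcn, Lama2 and 7 further markers) numbered 393 in CC to 2599 in HH. They held a median of 6 or 7 of their 10 markers, against 0 to 2 of the 10 macrophage markers and 0 or 1 of the 10 adipocyte markers, except for medians of 5 adipocyte markers in CC and 2 in CCC. The gated share of kept nuclei was 41.4% in CC and 43.1% in CCC, which stand apart from the 63.5 to 80.4% of the other 7 libraries and are 2 of the 3 chow controls. Results are given below without each of them where a call changed. Between 168 and 802 gated nuclei per library lay at the minimum of 3 markers. Adipocyte-gated nuclei, which the labelled tissue calls for, numbered 184 to 2308 per library, and 39 to 308 epithelial-gated nuclei lay beside them. Pairs of libraries shared 8 to 55 barcodes, at most 0.493% of the smaller library.

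Free RNA in the droplets gives every nucleus some UMIs of abundant genes. Lymphocyte-gated nuclei (T, NK and B cells), which should lack these matrix genes, were used as a measure of it, with median depths of 1156 to 2307 UMIs against 1894 to 3534 in progenitor-gated nuclei. Their Fn1 level ran from 59.0 to 519 CPM, their Postn level from 10.7 to 115 CPM and their Fbn1 level from 50.0 to 177 CPM. The 10 progenitor markers summed to 697 to 1040 CPM in lymphocyte-gated nuclei of 7 libraries. They summed to 1705 CPM in HH and 1820 CPM in HCH, so this level was higher in those 2. The 10 macrophage markers summed to 962 (CC) to 2246 CPM (HHC) in lymphocyte-gated nuclei. In progenitor-gated nuclei they summed to 264 (CCH) to 834 CPM (HHC). The part of macrophage RNA in the lymphocyte-gated Fn1 level was not tested. Mesothelial-gated nuclei held less Fn1 than lymphocyte-gated nuclei in every library, as given below. The lymphocyte-gated level can therefore overstate the free RNA of other classes.

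Promoter sequences of 4 of the 10 genes (Postn, Tnc, Tnxb and Fbn1) are given from the RefSeq promoter table, on build GRCm38.p6, with 250 bases before and 50 bases after each start. No window is given for the other 6: Fn1, Thbs1, Lox, Loxl1, Loxl2 and Fap. The windows shown of Postn and Tnc carry the same TATA element, and those of Tnxb and Fbn1 do not. Its relation to the levels of these genes was not tested. Capitals mark TATATAA and the AP-1 motif TGANTCA, both searched on both strands, and the windows are read 5′ to 3′ on the strand of the gene.
Postn, chr3:54360857-54361156, plus strand: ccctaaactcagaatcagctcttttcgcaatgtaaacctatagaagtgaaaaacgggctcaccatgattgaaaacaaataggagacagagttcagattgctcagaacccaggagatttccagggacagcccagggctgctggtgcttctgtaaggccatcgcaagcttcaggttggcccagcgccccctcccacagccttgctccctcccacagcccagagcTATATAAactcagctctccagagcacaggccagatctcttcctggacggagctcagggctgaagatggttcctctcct
Tnc, chr4:64046887-64047186, minus strand: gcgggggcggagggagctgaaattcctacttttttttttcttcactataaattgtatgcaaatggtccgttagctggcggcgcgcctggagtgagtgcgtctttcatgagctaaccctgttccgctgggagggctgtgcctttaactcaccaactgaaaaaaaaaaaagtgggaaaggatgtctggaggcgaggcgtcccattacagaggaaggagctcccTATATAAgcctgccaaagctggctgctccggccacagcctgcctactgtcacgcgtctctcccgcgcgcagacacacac
Tnxb, chr17:34670285-34670584, plus strand: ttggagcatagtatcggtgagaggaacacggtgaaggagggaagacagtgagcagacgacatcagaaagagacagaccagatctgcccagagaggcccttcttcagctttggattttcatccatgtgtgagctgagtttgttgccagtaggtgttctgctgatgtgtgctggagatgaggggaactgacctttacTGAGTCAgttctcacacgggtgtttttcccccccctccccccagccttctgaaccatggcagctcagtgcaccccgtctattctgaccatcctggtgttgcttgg
Fbn1, chr2:125506389-125506688, minus strand: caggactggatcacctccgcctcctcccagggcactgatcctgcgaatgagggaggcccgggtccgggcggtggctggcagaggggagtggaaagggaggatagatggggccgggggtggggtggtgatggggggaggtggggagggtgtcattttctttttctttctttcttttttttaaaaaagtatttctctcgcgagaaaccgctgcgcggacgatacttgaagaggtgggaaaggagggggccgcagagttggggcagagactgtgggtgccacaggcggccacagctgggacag

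TATATAA was found in the Postn window at position -28 and in the Tnc window at position -29, counted from the start base as 0. It is held by 1065 of all 32851 promoter windows in the table (3.24%), a rate per window. Among these 4 genes, 2 hold it, each in the window shown and not in its second window given below. TGAGTCA, a form of the AP-1 motif, was found once, in the Tnxb window at position -55, and the AP-1 letters are in 7.81% of all windows. The TEAD letters GGAATG (14.7% of all windows) were in none of the 4 windows shown, and the SMAD letters CAGAC, which 49.6% of all windows hold, were in those of Tnc and Tnxb when both strands were read. A second RefSeq start of Postn (chr3:54359017-54359316) and of Tnc (chr4:64046966-64047265) had no TATATAA. The Fbn1 window lies inside the GENCODE span of this minus-strand gene, whose outer end is at 125507993, so its RefSeq start is not the GENCODE start. The start of the Tnc window shown also lies inside the GENCODE span of Tnc, whose outer end is at 64047015. The second Tnc window is the one that starts at that end. The TATATAA of Tnc thus lies downstream of the GENCODE start and just outside the second window. Such matches describe letters in a window and do not show that a factor binds there.

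In GENCODE vM21 on GRCm38, the genes lie apart from each other: Fn1 at chr1:71585520-71653200, Postn at chr3:54361109-54391037, Tnc at chr4:63959785-64047015, Loxl1 at chr9:58287738-58313186, Loxl2 at chr14:69609068-69695834 and Tnxb at chr17:34670535-34719815. Chromosome 2 holds 3 of them, Fap at 62500943-62574075, Thbs1 at 118111876-118127133 and Fbn1 at 125300594-125507993. The position of Lox is not given here. All 10 are protein-coding genes, and intronic reads were counted by the authors.

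**Figure D1:**
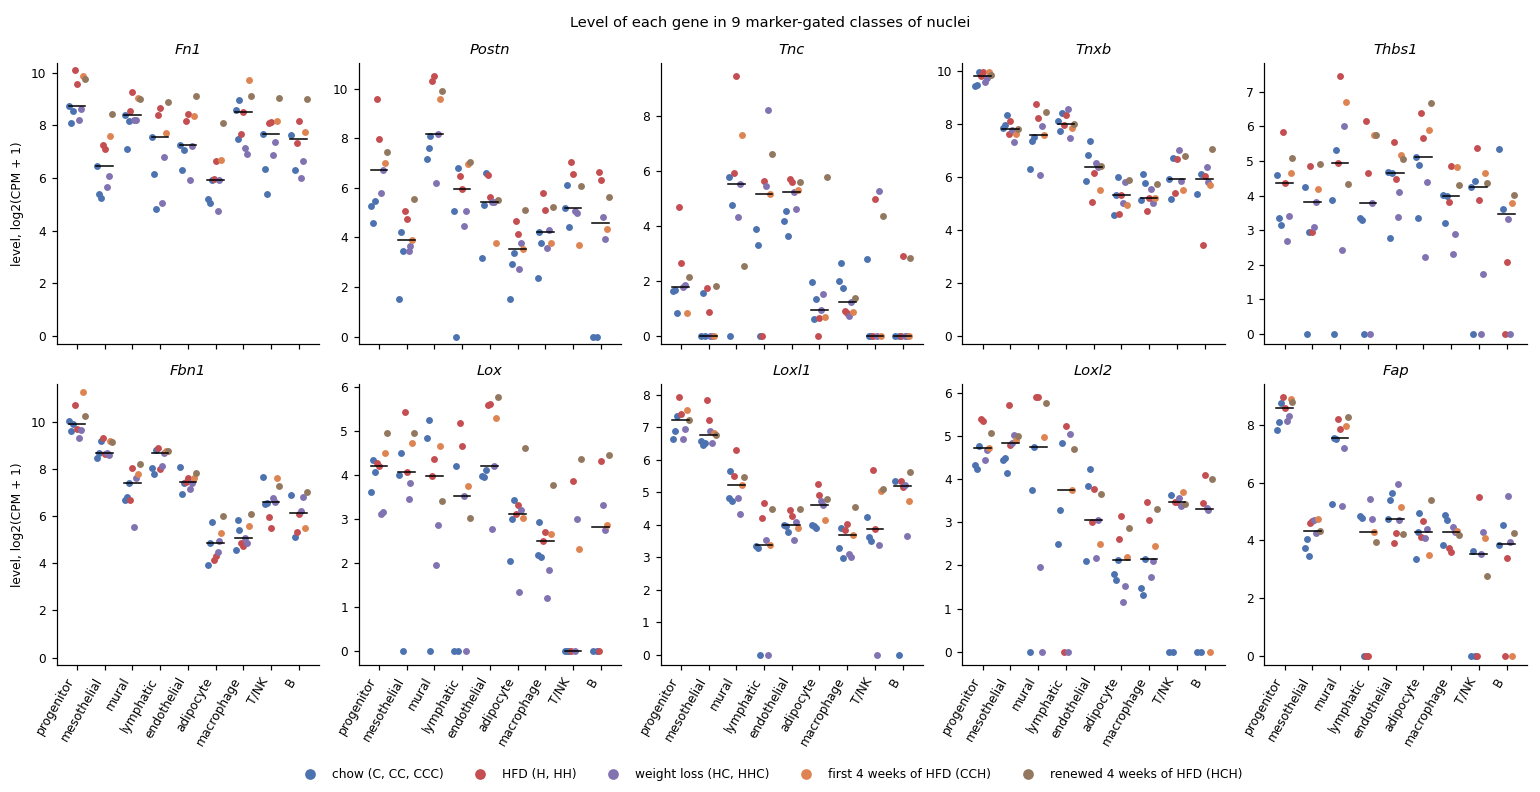
Level of each of the 10 genes (log2(CPM + 1), vertical axis) in 9 marker-gated classes of nuclei (horizontal axis). Each point is a library with at least 20 nuclei of the class, coloured by diet, and the black line is the median. Fbn1, Tnxb and Fap stand highest in progenitor-gated nuclei in each of the 9 libraries, while Postn stands highest in mural-gated nuclei and Thbs1 and Lox are low in every class.

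The first question was where in the tissue each gene is expressed. Fibrillin 1 (Fbn1), tenascin X (Tnxb), fibroblast activation protein (Fap, a cell-surface protease of activated fibroblasts) and Loxl1 (the lysyl oxidase of elastic fibres) were mainly progenitor genes. Progenitor-gated nuclei held 84.9% of the gated UMIs of Fbn1, 85.2% of those of Tnxb, 88.4% of those of Fap and 72.3% of those of Loxl1. Fbn1 reached a median over 9 libraries of 961 CPM there, against 414 CPM in mesothelial-gated nuclei, the next class, and was higher there in 9 of 9 libraries (mean difference 1.17 on the log2(CPM + 1) scale). Tnxb stood at a median of 878 CPM, and lymphatic-gated nuclei, the next class at 253 CPM, were lower in 9 of 9 libraries (mean difference 1.71). The median Fap level was 380.3 CPM in progenitor-gated nuclei and 185 CPM in mural-gated nuclei (pericytes and smooth muscle), again lower in 9 of 9 libraries (mean difference 1.26). Loxl1 was close in progenitor-gated and mesothelial-gated nuclei, with medians of 147 and 108 CPM, and higher in the former in 8 of 9 libraries.

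Periostin (Postn), a matricellular partner of collagen and integrins, had its highest level in mural-gated nuclei, with a median of 291 CPM, and progenitor-gated nuclei followed at 105 CPM (higher in mural-gated nuclei in 9 of 9 libraries, mean difference 1.97). Since there were 698 mural-gated nuclei in all and 13745 progenitor-gated nuclei, the latter still gave 71.3% of the gated Postn UMIs and the former 6.4%. Of the gated UMIs of fibronectin (Fn1), 51.0% lay in progenitor-gated nuclei and 35.0% in macrophage-gated nuclei, free RNA included. Its median was 427 CPM in the first and 362 CPM in the second, and single macrophage-gated nuclei held up to 185 UMIs of it. In lymphocyte-gated nuclei the median was 202 CPM, and in H and HHC their Fn1 level (215 and 135 CPM) was above that of macrophage-gated nuclei (203 and 118 CPM).

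Tenascin C (Tnc), which is made in injured and growing tissue, stood highest in vascular classes. Its medians were 44.3 CPM in mural-gated, 36.5 CPM in endothelial-gated and 34.1 CPM in lymphatic-gated nuclei, but 2.38 CPM in progenitor-gated nuclei. Thrombospondin 1 (Thbs1), an activator of latent TGF-beta, had medians of 33.4 CPM in adipocyte-gated, 29.5 CPM in mural-gated and 23.9 CPM in endothelial-gated nuclei. Lox and Loxl2, the enzymes that act mainly on fibrillar collagen and on collagen IV, were low in every class. The median of Lox was 17.6 CPM in endothelial-gated and 17.4 CPM in progenitor-gated nuclei, and that of Loxl2 was 27.6 CPM in mesothelial-gated, 25.8 CPM in mural-gated and 25.4 CPM in progenitor-gated nuclei. Over the 10 genes, 90 pairs of neighbouring classes were compared by exact two-sided sign-flip permutation tests over libraries. None passed the Benjamini-Hochberg threshold (23 had an unadjusted p under 0.05), and the smallest exact p that 9 libraries allow, 0.00391, became 0.0586 when adjusted. The order of neighbours is therefore a description, including those that kept one direction in 9 of 9 libraries.

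**Figure D2:**
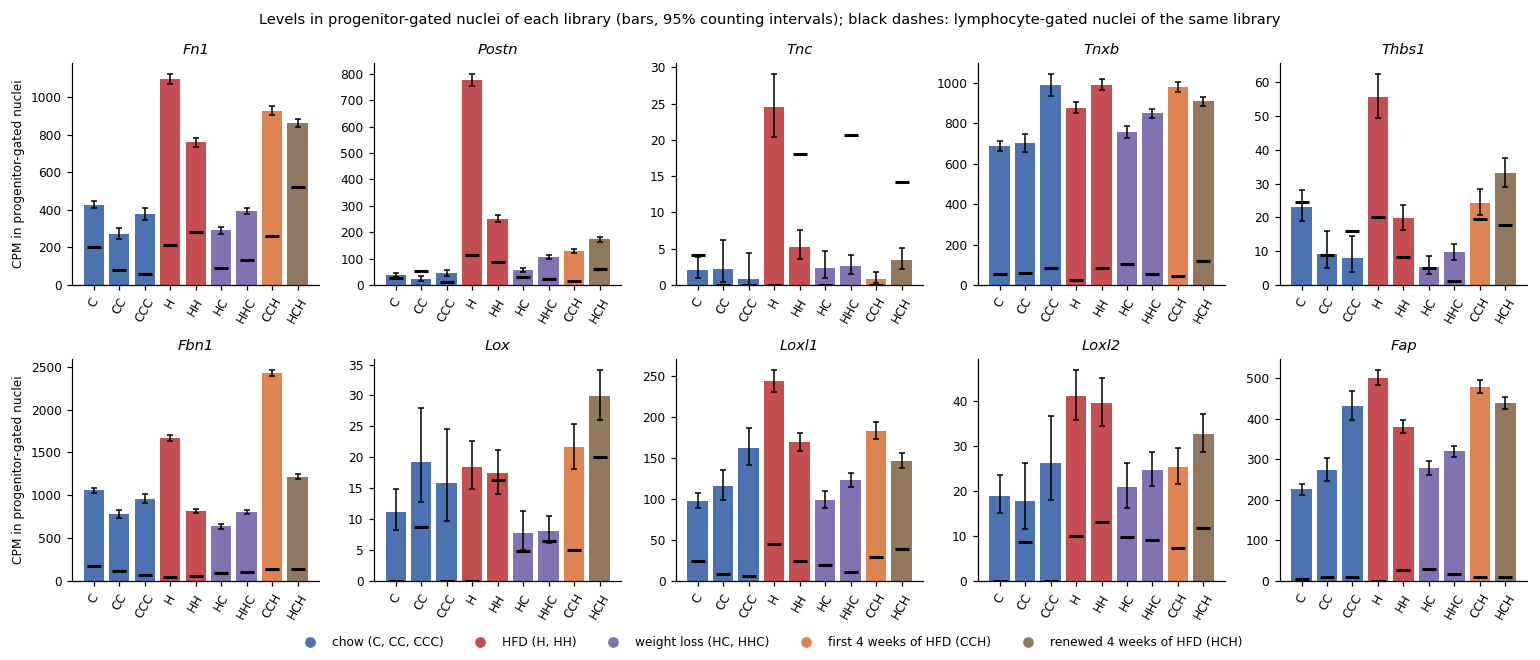
Level of each gene in progenitor-gated nuclei (bars, CPM) in the 9 libraries, with exact Poisson 95% intervals, which cover counting error only. Black dashes give the level in lymphocyte-gated nuclei of the same library. Postn stands at 776 CPM in H and 252 CPM in HH and at 43.6 CPM or less on chow, where the dashes of CC and C lie close to or above the bar.

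The diet comparison in progenitor-gated nuclei used edgeR's quasi-likelihood test with chow (C, CC, CCC), HFD (H, HH) and weight loss (HC, HHC) as states. The libraries of a state stood as replicates although their ages and diet durations differ, so p-values measure the spread between these pools. Of the 10 genes, 3 rose with HFD and none fell, where 9.08% of all 14870 genes tested were called higher and 5.35% lower. The median log2 fold change was 0.63 over the 10 genes and -0.02 over all genes.

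Postn changed most. It stood at 37.5, 22.8 and 43.6 CPM in C, CC and CCC and at 776 and 252 CPM in H and HH. The states did not overlap, and the shorter exposure gave the higher value. The log2 fold change was 3.67 ± 0.46 (SE, edgeR adjusted p = 0.00565). Lymphocyte-gated nuclei, the measure of free RNA, held 24.7, 52.4 and 10.7 CPM of Postn in C, CC and CCC, and 115 and 86.9 CPM in H and HH. The progenitor level was thus below the lymphocyte-gated one in CC and above it in C and CCC. The lymphocyte-gated value rests on 45 nuclei in CC and on 2 UMIs in CCC. In C, adipocyte-gated and mesothelial-gated (1.89 CPM each), macrophage-gated (4.12 CPM) and endothelial-gated nuclei (7.92 CPM) held less Postn than lymphocyte-gated nuclei. Mural-gated nuclei of C held more.

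The share of nuclei with Postn was also higher on HFD. When each nucleus was thinned to 1500 UMIs, leaving out shallower ones, 3.87%, 2.58% and 3.38% of progenitor-gated nuclei of C, CC and CCC held at least 1 Postn UMI, against 42.9% in H (95% interval 40.4 to 45.4%) and 19.2% in HH (17.4 to 21.1%). Lymphocyte-gated nuclei at the same depth gave 3.17%, 7.89%, 0.0%, 15.9% and 8.04% in these 5 libraries. In C and CC the progenitor-gated share lay within the 95% interval of the lymphocyte-gated one. In CCC the 0 of 51 lymphocyte-gated nuclei allow up to 6.98% (95% interval). No chow share could thus be told from that of lymphocyte-gated nuclei at this depth. The shares of H and HH were above the lymphocyte-gated ones. Up to 87 Postn UMIs were found in a single progenitor-gated nucleus of H, and up to 18 in one of C.

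Fn1 stood at 427, 273 and 377 CPM on chow and at 1096 and 759 CPM in H and HH. Both HFD values lay above all 3 chow values, with a log2 fold change of 1.15 ± 0.24 (SE, edgeR adjusted p = 0.0186). Lymphocyte-gated nuclei moved from 202, 78.7 and 59.0 CPM on chow to 215 and 284 CPM in H and HH, so this level also differed. After subtraction of that level the ratio of H to C was 1.97 on the log2 scale, and that of HH to CC was 1.29.

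Tnc rose too, on few nuclei. Its UMIs numbered 9, 3 and 1 in progenitor-gated nuclei of C, CC and CCC (2.06, 2.14 and 0.793 CPM), 126 in H (24.5 CPM) and 29 in HH (5.25 CPM). The log2 fold change was 2.80 ± 0.70 (SE, edgeR adjusted p = 0.0311). Lymphocyte-gated nuclei held 0 Tnc UMIs in H, where the exact Poisson 95% upper limit is 18.5 CPM. In HH they held 11 (18.0 CPM, 3 of them in 1 nucleus), more than the progenitor-gated level of HH. Macrophage-gated (0.783 CPM), mesothelial-gated (0.836 CPM) and adipocyte-gated nuclei (0.558 CPM) of HH held less than progenitor-gated nuclei. Endothelial-gated (46.5 CPM), lymphatic-gated (48.7 CPM) and mural-gated nuclei (692 CPM) held more. Those 126 UMIs came from 42 of the 1784 progenitor-gated nuclei of H, and the highest single nucleus held 26 of them. With that nucleus left out (an alternative chosen after seeing the data) H stood at 19.4 CPM, still above the other libraries. Without H the log2 fold change was 1.34 and the adjusted p was 0.373.

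The other 7 genes did not pass the threshold in this comparison. With the age of the mice as a block, an alternative chosen after seeing the data in which HFD rests on H with C, Loxl1 (log2 fold change 1.07, edgeR adjusted p = 0.00801) and Fap (0.90, adjusted p = 0.0327) were called as well as Postn, Fn1 and Tnc. Loxl2 was closest, at 18.99, 17.8 and 26.2 CPM on chow and 41.2 and 39.7 CPM in H and HH, without overlap (log2 fold change 0.75 ± 0.23, SE, adjusted p = 0.0549). Thbs1 stood at 23.1, 9.27 and 7.93 CPM on chow and at 55.8 and 19.7 CPM in H and HH, so that HH lay below C (1.13 ± 0.52, adjusted p = 0.167). Loxl1 stood at 97.9, 116 and 163 CPM on chow and at 244 and 169.5 CPM on HFD, also without overlap (0.52 ± 0.24, adjusted p = 0.169).

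Levels of Fap, Fbn1, Lox and Tnxb overlapped between chow and HFD. The chow values of Fap were 226, 274 and 432 CPM, and H and HH stood at 502 and 380.3 CPM. Fbn1 was high at 1055, 783 and 961 CPM on chow, 1667 CPM in H and 819.5 CPM in HH. Lox stood at 11.2, 19.3 and 15.9 CPM on chow and at 18.5 and 17.4 CPM in H and HH. Tnxb varied least of the 10 genes over the 9 libraries, between 689 and 992 CPM, and its log2 fold change with HFD was 0.03 ± 0.20 (SE, adjusted p = 0.937).

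These calls depended on which libraries stood in the model. All HFD libraries were in set S075, and 2 of the 3 chow libraries were in S019. By the methods those 2 also differ from C in control diet, so set and control diet cannot be told apart among the chow libraries. With the sequencing set in the model, which is then estimated from the chow libraries alone, none of the 10 genes passed, although Postn kept a log2 fold change of 3.53 (adjusted p = 0.0638), Fn1 one of 0.87 (adjusted p = 0.103) and Tnc one of 2.58 (adjusted p = 0.142). Within S075 alone, Postn was 20.7-fold (95% interval 17.7 to 24.3) higher in H than in C and 6.71-fold (5.70 to 7.94) higher in HH than in C. In the same set Fn1 was 2.57-fold and 1.78-fold higher. Postn was the only one of the 10 called with H left out (2.65, adjusted p = 0.0189) or with CC left out (3.47, adjusted p = 0.0267), while without C Fn1 was called with it, and without CCC the calls were Postn, Fn1 and Loxl2. With H or HH left out the HFD state is 1 library, and the spread then comes from the chow and weight loss libraries, on the assumption that it varies as they do.

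**Figure D3:**
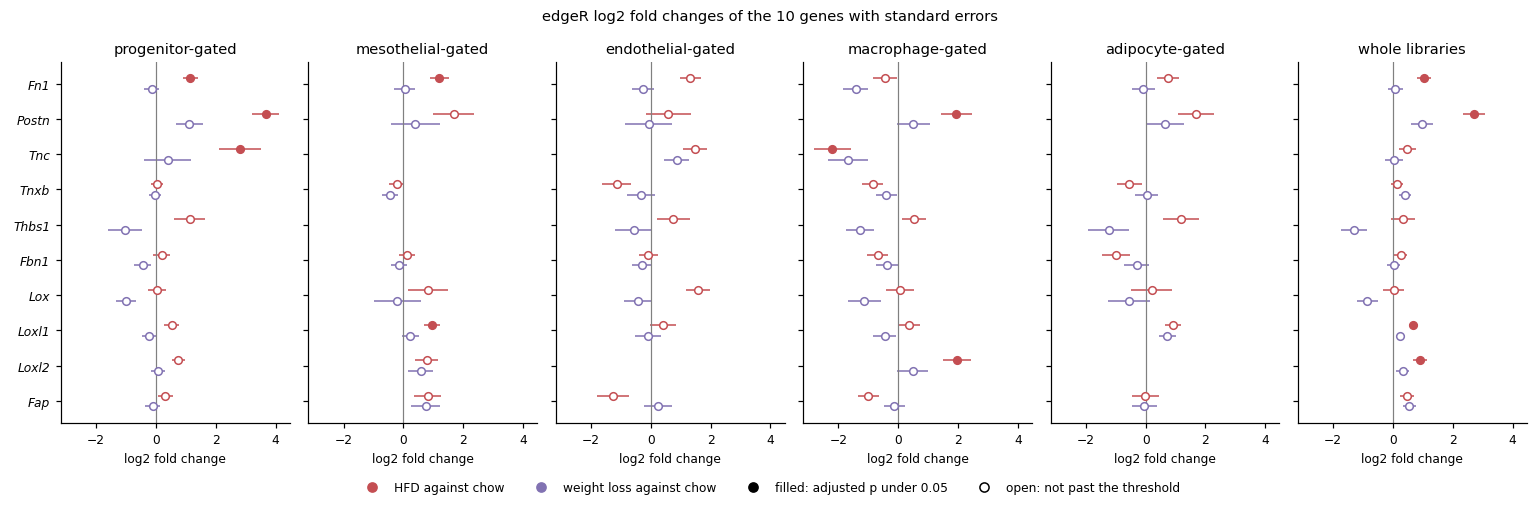
edgeR log2 fold changes (horizontal axis, points) with standard errors (bars) of the 10 genes (rows) in 5 classes and in whole libraries, for HFD against chow (red) and weight loss against chow (purple). Filled points passed an adjusted p of 0.05. In progenitor-gated nuclei Postn (3.67), Tnc (2.80) and Fn1 (1.15) are filled for HFD, and no gene is filled for weight loss in any panel.

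After weight loss, none of the 10 genes was called against chow in progenitor-gated nuclei by edgeR, where 0.794% of all genes were called higher and 0.114% lower. In simulated data the HFD contrast of this fit recovered 24 of 99 genes changed 2-fold, so an absent call does not show an unchanged level. Of the 10, 2 had an unadjusted p under 0.05, Postn (adjusted p = 0.332) and Lox (adjusted p = 0.226), and DESeq2 called none either. Postn stood at 55.1 CPM in HC and 105 CPM in HHC, both above the 3 chow values of 22.8 to 43.6 CPM, and its log2 fold change was 1.11 ± 0.45. Lox stood at 7.75 CPM in HC and 8.03 CPM in HHC, both below the lowest chow value of 11.2 CPM (-1.001 ± 0.32). Fn1, at 291 and 393 CPM, overlapped the chow libraries (-0.15 ± 0.24). With the age of the mice as a block, which sets HC against CC and HHC against CCC, Postn was called higher after weight loss (log2 fold change 1.21, edgeR adjusted p = 0.0016). That fit was added after the data were seen and leaves 1 residual degree of freedom.

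The fall from HFD to weight loss was tested as a contrast added after the data were seen. Postn fell in it by 2.56 ± 0.49 on the log2 scale (SE, edgeR adjusted p = 0.0447), and Fn1, at -1.30 ± 0.27, missed the threshold (adjusted p = 0.0529). Of all genes 0.814% were called lower in this contrast and 0.498% higher. Leaving out 1 library at a time gave 0 to 2 calls. Postn was lost without C, CC, CCC, H, HH or HC and kept without HHC. No gene of the 10 passed with library totals, the sequencing set as covariate, doublets kept or Leiden clusters. H and HH were in S075 and HC and HHC in S019, so the state and the sequencing set cannot be told apart in the values of this contrast.

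Ratios of 2 libraries show how far each gene stood from a control. H and C, HC and CC, HHC and CCC, and HCH and CCH were pairs of 1 age and 1 sequencing set, while HH (31 weeks old, S075) was set against CC (26 weeks old, S019), which matches neither. By the methods and their age, CC mice had also been moved to the standard chow. The ratios have no replicates, and their exact conditional 95% intervals cover counting error only. In progenitor-gated nuclei, 7 of the 10 genes were more than 2-fold higher in H than in C (22.3% of all genes) and 5 in HH than in CC (26.1%), and none was more than 2-fold lower (6.25% and 7.35% of all genes). Set against C, the younger control of the same set, HH had 3 genes past 2-fold higher (24.7% of all genes) and none past 2-fold lower (5.04%). Postn was 20.7-fold higher in H and 11.0-fold (7.77 to 16.2) higher in HH. Both ratios depend on low controls. With the lymphocyte-gated level subtracted, the log2 ratio of H to C went from 4.37 to 5.69, on 12.8 CPM left in C. HH to CC then had no ratio, since the lymphocyte-gated level was the higher one in CC. That level can overstate free RNA. Fap (2.23-fold), Fn1 (2.57-fold), Loxl1 (2.49-fold), Loxl2 (2.17-fold), Thbs1 (2.41-fold) and Tnc (11.9-fold, 6.07 to 26.6) were the others past 2-fold in H.

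Of the 9 genes with at least 20 UMIs in the weight loss pairs, 1 was past 2-fold higher in HC than in CC (6.96% of all genes) and 1 in HHC than in CCC (13.2%), and it was Postn both times. The HC ratio was 2.42 (1.65 to 3.64) and the HHC ratio 2.40 (1.82 to 3.21). CC held less Postn in progenitor-gated than in its 45 lymphocyte-gated nuclei, so the control of the first of these ratios was not above the lymphocyte-gated level. Lox was the one gene past 2-fold lower, in HC (0.402, 0.226 to 0.716, with 7.31% of all genes lower), and stood at 0.506 (0.299 to 0.892) in HHC, where none was past 2-fold lower (3.08% of all genes). Fap, Fbn1, Loxl1 and Tnxb were below their control in HHC with intervals that excluded 1, at 0.740, 0.840, 0.757 and 0.860.

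**Figure D4:**
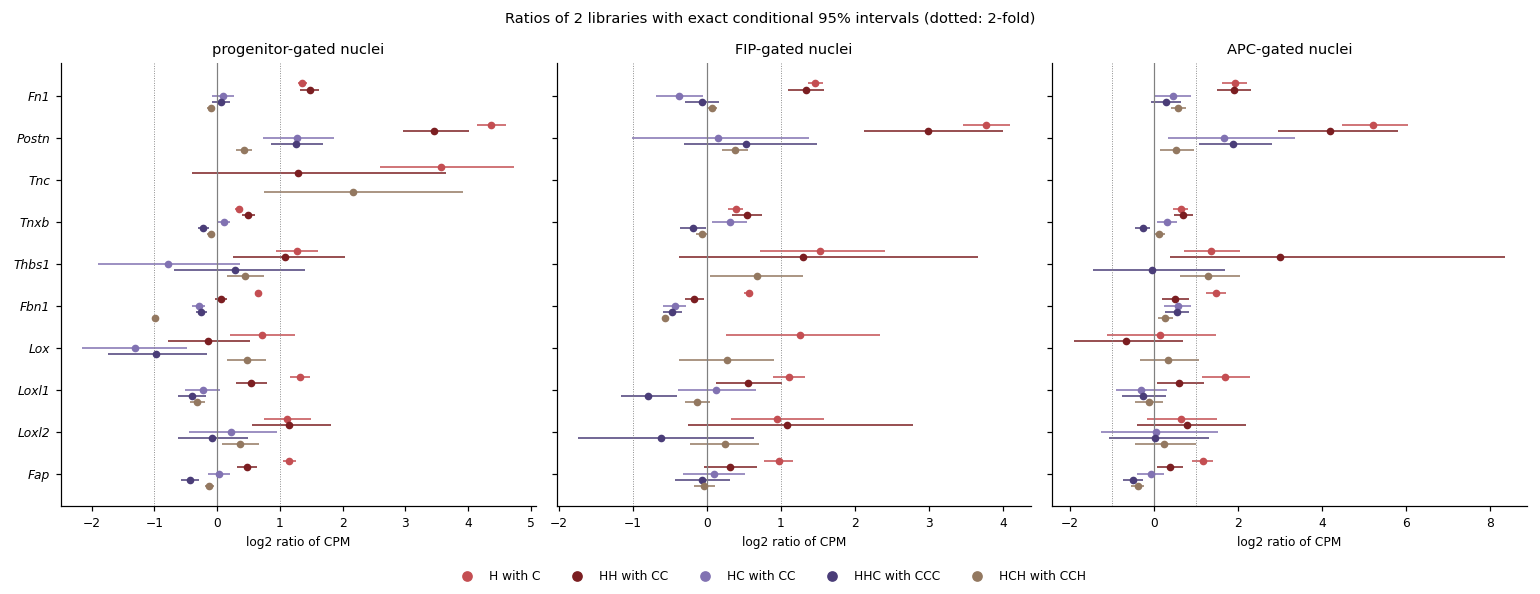
Log2 ratios of CPM between 2 libraries (horizontal axis) for each gene (rows) in progenitor-gated, FIP-gated and APC-gated nuclei, with exact conditional 95% intervals for counting error. Pairs with under 20 UMIs are left out, and dotted lines mark 2-fold. Postn lies right of the 2-fold line in H with C and HH with CC in all 3 panels, and Fbn1 in HCH with CCH lies left of 0 in progenitor-gated and FIP-gated nuclei and right of 0 in APC-gated nuclei.

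Short HFD, counted as pairs of libraries in the same way, was compared between mice that met it for the first time (CCH) and mice that had been obese before (HCH). Postn was at 128 CPM in CCH and 173 CPM in HCH, a ratio of 1.35 (1.24 to 1.48), and both lay between the chow and the 12-week HFD values. Fn1 was high in both, at 927 and 863 CPM (0.931, 0.899 to 0.965), near its levels in H and HH. The widest difference with many UMIs was in Fbn1, at 2429.5 CPM in CCH, the highest of all 9 libraries, and 1218 CPM in HCH (0.501, 0.488 to 0.515). Tnc, with 5 and 24 UMIs, had a ratio of 4.49 (1.68 to 15.1), and was the one gene past 2-fold higher, where 12.8% of all genes were and 1.85% were past 2-fold lower. Lox (1.38), Loxl2 (1.29) and Thbs1 (1.36) were higher and Fap (0.915), Loxl1 (0.803) and Tnxb (0.929) lower in HCH, all with intervals that excluded 1. The lymphocyte-gated level of several of these genes was higher in HCH. With that level subtracted, the log2 ratio of HCH to CCH was 0.01 for Postn, -0.96 for Fn1 and -1.09 for Fbn1, and that of Lox turned to -0.77. The subtraction can take off too much. The 519 CPM of Fn1 taken off in HCH was above the Fn1 level of its mesothelial-gated (345 CPM), adipocyte-gated (269 CPM) and epithelial-gated nuclei (258 CPM).

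Fbn1 also differed between kinds of progenitors, whose shares differed between these libraries. Within progenitor-gated nuclei, 2 subsets were gated: FIP-gated nuclei (fibro-inflammatory progenitors, by Dpp4, Pi16 and 6 further markers) and APC-gated nuclei (adipocyte progenitors, by Cxcl14, Col15a1 and 6 further markers). The FIP-gated share of progenitor-gated nuclei was 51.7% in CCH and 27.5% in HCH, and lay between 13.8% (HC) and 39.2% (C) elsewhere. In CCH 619 of 1753 progenitor-gated nuclei lay in neither subset, and in HCH 942 of 2074. Fbn1 in FIP-gated nuclei alone was 4007 CPM in CCH and 2715 CPM in HCH, a ratio of 0.678 (0.657 to 0.699). This was a smaller difference than over all progenitor-gated nuclei. The part of the subset shares in the Fbn1 difference was not tested. In APC-gated nuclei the order turned, with 388 CPM in CCH and 469 CPM in HCH (1.21, 1.07 to 1.37).

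**Figure D5:**
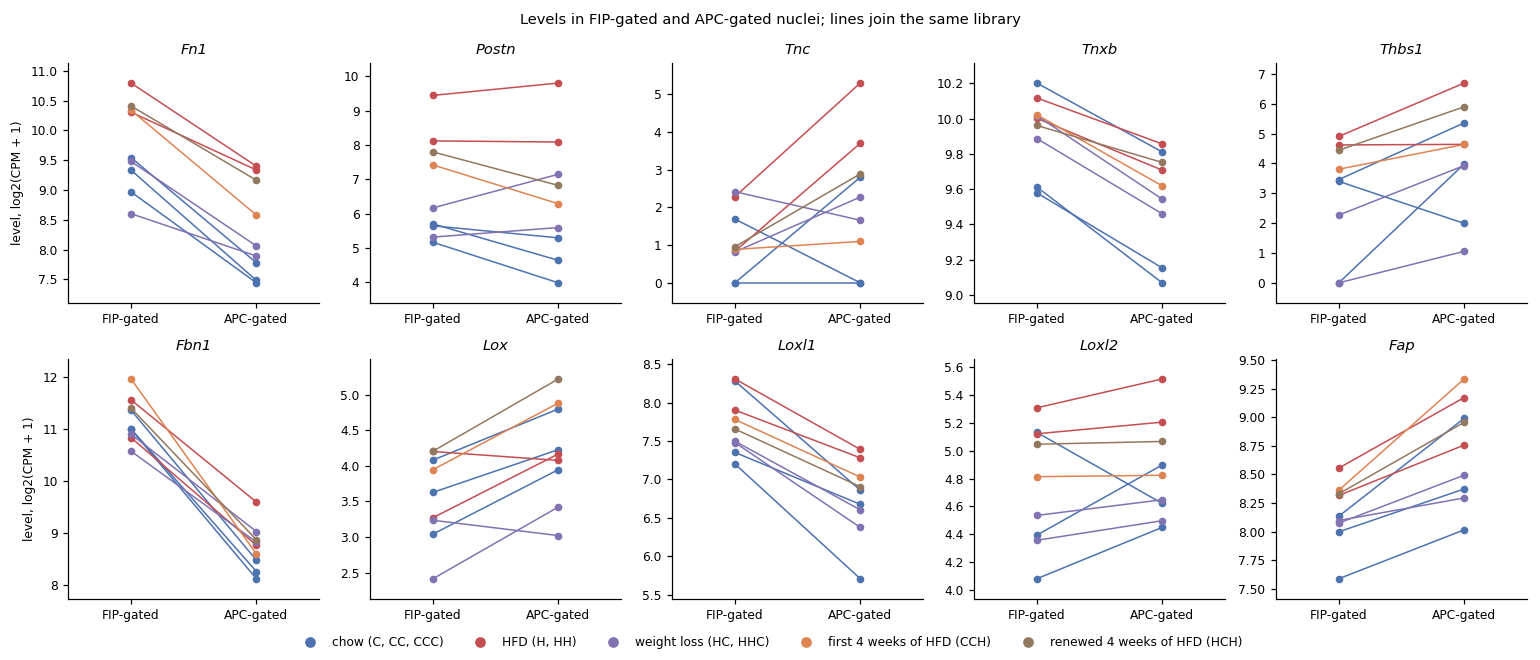
Level of each gene (log2(CPM + 1), vertical axis) in FIP-gated and APC-gated nuclei, with lines joining the 2 subsets of the same library. Fbn1, Fn1, Loxl1 and Tnxb fall from left to right in each of the 9 libraries and Fap rises in each of them, while the Postn lines run in both directions.

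The subsets were then compared with each other. All 9 libraries entered an edgeR fit with the library as a block, in which 9 of the 10 genes were tested (Tnc was too low) and 7 changed, 4 higher and 3 lower in FIP-gated nuclei, where 10.9% of all 9514 genes were higher and 11.2% lower. Fbn1 led, with 1528 to 4007 CPM in FIP-gated and 278 to 776 CPM in APC-gated nuclei, and no overlap (log2 fold change 2.43 ± 0.13, SE, adjusted p = 6.95e-12). Fn1 ran from 387 to 1777 CPM in FIP-gated and from 173 to 674 CPM in APC-gated nuclei, overlapping over libraries but higher in the FIP-gated nuclei of each one (1.40 ± 0.09, adjusted p = 1.95e-10). Loxl1 was higher by 0.93 ± 0.08 (adjusted p = 2.3e-08) and Tnxb by 0.39 ± 0.05 (adjusted p = 7.34e-06).

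Thbs1, Lox and Fap went the other way, higher in APC-gated nuclei. Thbs1 ranged from 1.08 CPM (HC) to 103 CPM (H) there, against 0.0 to 29.0 CPM in FIP-gated nuclei (-1.33 ± 0.21, adjusted p = 5.4e-05). Lox differed by -0.70 ± 0.19 (adjusted p = 0.00847) and Fap by -0.55 ± 0.07 (adjusted p = 5.72e-06). Without the library block 5 genes passed, 4 higher and 1 lower, and Thbs1 and Lox did not. Lox was also lost with HCH left out. Postn was not called between the subsets (0.21 ± 0.17, adjusted p = 0.479). It reached 697 CPM in FIP-gated and 894 CPM in APC-gated nuclei of H, and 278 and 271 CPM in those of HH. On chow the same subsets held 51.2, 35.0 and 49.2 CPM (FIP-gated) and 24.0, 14.9 and 38.4 CPM (APC-gated) in C, CC and CCC.

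Markers of macrophages were higher in the progenitor-gated nuclei of all 5 libraries with 12 or 25 weeks of HFD, past or present. The summed level of the 10 macrophage markers there was 265 to 284 CPM on chow and 264 CPM in CCH, 630 and 714 CPM in H and HH, 484 and 834 CPM in HC and HHC, and 636 CPM in HCH. The 8 markers of lipid-associated macrophages (LAM) summed to 121 to 178 CPM on chow and 119 CPM in CCH, to 2205 and 1979 CPM in H and HH, to 934 CPM in HC, 3234 CPM in HHC and 891 CPM in HCH. The highest of these sums was therefore in a weight loss library, HHC. In lymphocyte-gated nuclei they came to 85.8 to 123 CPM on chow, 4449 and 3130 CPM in H and HH, 1709 CPM in HC and 5068 CPM in HHC. Their part in the calls was not tested. Postn in LAM-gated nuclei themselves was 51.3 CPM in H and 32.5 CPM in HH, under its level in progenitor-gated nuclei, and Tnc there was 0.715 and 0.416 CPM. Fn1 in LAM-gated nuclei was 179 CPM in H and 337 CPM in HH, also under its progenitor level.

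Mural-gated nuclei were not fitted and are given as levels. Postn stood at 141, 197 and 271 CPM in C, CC and CCC and at 1284 and 1461 CPM in H and HH, without overlap. After weight loss it was 73.4 CPM in HC and 291 CPM in HHC, and on short HFD 761 CPM in CCH and 963 CPM in HCH. All 4 HFD libraries were above the 5 libraries taken on chow. Those 4 were all in set S075, and of the 5 only C was. H was 9.08-fold (6.57 to 12.6) above C and HH was 7.42-fold (4.42 to 13.3) above CC, where 14.8% and 18.2% of all genes were past 2-fold higher. These values rest on 30 (CC) to 173 (C) mural-gated nuclei, and markers of other cells moved with them. The 8 LAM markers summed to 102, 73.9 and 77.5 CPM in mural-gated nuclei of C, CC and CCC, to 2642 and 2436 CPM in H and HH, and to 3879 CPM in HHC. The 10 macrophage markers stood at 161, 234 and 530 CPM on chow and at 974 and 672 CPM in H and HH, and the 10 progenitor markers ran from 778 CPM (C) to 2557 CPM (HCH). Mural-gated nuclei of CC, the control of the HH ratio, held a median of 5.5 of the 10 adipocyte markers, against 0 to 2 in the other libraries. The part of these markers in the Postn levels was not tested.

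Among mesothelial-gated nuclei, the cells of the serous lining, 2 of 8 tested genes rose with HFD (5.58% of all genes higher, 2.53% lower). Fn1 went from 87.7, 41.2 and 36.6 CPM on chow to 151 and 138 CPM in H and HH (log2 fold change 1.21 ± 0.32, SE, edgeR adjusted p = 0.034). In each of the 9 libraries this was below the Fn1 level of lymphocyte-gated nuclei. Loxl1 went from 94.3, 86.3 and 89.8 CPM to 228 and 147 CPM (0.95 ± 0.26, adjusted p = 0.0407), and lymphocyte-gated nuclei held 45.0 CPM or less of it. None of the 8 was called after weight loss by edgeR or DESeq2, where 0.414% of all genes were higher and 0.0559% lower. Both HFD calls were lost with DESeq2, with doublets kept, and with CC, CCC, H or HH left out, and Loxl1 also without C. Without CC, Postn was the one call. With the sequencing set in the model Postn was the one call. Its level in mesothelial-gated nuclei was at most 46.5 CPM in any library, under the lymphocyte-gated levels of H (115 CPM) and HH.

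Endothelial-gated nuclei gave no call among 9 tested genes for HFD (2.58% of all genes higher, 1.86% lower) or weight loss (0.0% in both directions) with edgeR, where 1864 and 691 of all genes had an unadjusted p under 0.05. Lox, Fn1 and Tnc came closest for HFD. Lox stood at 14.9, 14.7 and 16.4 CPM on chow and at 47.5 and 47.9 CPM in H and HH, without overlap, and at 38.6 and 54.1 CPM in CCH and HCH (log2 fold change for HFD 1.58 ± 0.40, adjusted p = 0.0591). After weight loss it was 5.88 CPM in HC and 17.6 CPM in HHC. Tnc stood at 16.8, 22.0 and 11.3 CPM on chow and at 51.0 and 46.5 CPM in H and HH, also without overlap (1.48 ± 0.41, adjusted p = 0.0744), and Fn1 had an adjusted p of 0.0724. DESeq2 called 1 of the 9 for HFD, Fn1, and none for weight loss. Without C, 4 passed, namely Fn1, Tnc, Tnxb and Lox, and Lox alone passed without HC or HHC. In the main fit Tnxb was lower on HFD (log2 fold change -1.14), unlike Fn1, Tnc and Lox. Lox also passed with all 9 libraries, no upper limit on genes or 1 more marker, Postn with the sequencing set or the age of the mice in the model, and 4 genes without the filter on low counts.

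Macrophage-gated nuclei are not the same mixture in each state. PVM-gated nuclei (perivascular macrophages) numbered 1042, 339 and 245 in C, CC and CCC against 20, 1 and 10 LAM-gated nuclei, while H and HH held 196 and 233 PVM-gated and 2950 and 2979 LAM-gated nuclei. The weight loss libraries HC and HHC held 92 and 45 PVM-gated and 485 and 1499 LAM-gated nuclei. A change of level within a kind of macrophage and a change of kind cannot be told apart in the sums of this class. There were 3 calls of 10 for HFD, Postn and Loxl2 higher and Tnc lower, against 18.3% of all genes higher and 15.7% lower. All 3 rested on low levels, and 1 of the 10 was called with the sequencing set in the model. Postn stood at 4.12 to 17.7 CPM on chow and at 55.0 and 33.1 CPM in H and HH (1.95 ± 0.52, adjusted p = 0.0216), under the 115 and 86.9 CPM of lymphocyte-gated nuclei in the same libraries. Loxl2 (1.95 ± 0.47, adjusted p = 0.0146) stood at 1.48 to 3.45 CPM on chow and at 10.0 and 7.34 CPM in H and HH, and 28 of its 107 UMIs in H lay in 1 nucleus. Lymphocyte-gated nuclei held 0.0 to 8.74 CPM of Loxl2 on chow (1 UMI in all) and 10.0 and 13.1 CPM in H and HH (2 and 8 UMIs). The macrophage-gated level was near theirs in H and below it in HH. Tnc (-2.20 ± 0.63, adjusted p = 0.0275) stood at 2.30 to 5.17 CPM on chow and at 0.843 and 0.783 CPM on HFD. On chow the PVM-gated nuclei held 3.31, 5.20 and 3.38 CPM of it, and the LAM-gated nuclei of H and HH held 0.715 and 0.416 CPM. In PVM-gated nuclei of HH the level was 4.93 CPM, from 3 UMIs, and in those of H there was none. None of the 10 was called after weight loss by edgeR (3.92% of all genes higher, 2.18% lower), and DESeq2 called 1 lower, Fn1, as edgeR did without CC. The HFD calls numbered 0 without H, 1 without HH (Postn), 2 without CC (Postn and Loxl2) and 5 without C (Postn, Fap, Fbn1, Tnc and Tnxb).

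The Fn1 level of macrophage-gated nuclei did not pass for HFD (-0.44, adjusted p = 0.411), at 382, 180 and 502 CPM on chow and 203 and 362 CPM in H and HH. On short HFD it stood at 841 CPM in CCH and 556 CPM in HCH. Lymphocyte-gated nuclei held 258 and 519 CPM there, so the HCH level was near the lymphocyte-gated one. In H the macrophage-gated level was below the 215 CPM of lymphocyte-gated nuclei. In CCH the LAM-gated nuclei held 1148 CPM and the PVM-gated nuclei 410 CPM, the former from 49 nuclei. The 2 weight loss libraries, at 142 and 118 CPM, were below the 3 chow values (-1.42, adjusted p = 0.0857), between classes that were mostly PVM-gated on chow and had more LAM-gated nuclei after weight loss. With the age of the mice as a block, added after the data were seen, Fn1 was called in this contrast. That fit leaves 1 residual degree of freedom. PVM-gated nuclei alone held 197, 73.7 and 157 CPM of Fn1 in C, CC and CCC and 70.5 and 33.9 CPM in HC and HHC, the last from 7 UMIs. In C, CC and HHC these levels were below those of lymphocyte-gated nuclei, and in CCC above.

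In adipocyte-gated nuclei none of 8 tested genes was called by edgeR for HFD (10.8% of all genes higher, 5.43% lower) or for weight loss (0.0484% higher, 0.0% lower), and none by DESeq2, where edgeR gave 4436 and 1255 of all genes an unadjusted p under 0.05. For HFD, Postn was called higher without CCC and Fbn1 lower without C. Loxl1 was called higher with library totals, doublets kept or 1 more marker, and Postn with the sequencing set or the age of the mice in the model. The calls numbered 2 without the filter on low counts (Postn and Thbs1, higher) and 3 without the upper limit on genes (Postn and Loxl2 higher, Fbn1 lower). Postn was at most 33.7 CPM in adipocyte-gated nuclei of any library, under the lymphocyte-gated levels of H (115 CPM) and HH. Thbs1 stood at 33.4, 9.23 and 28.3 CPM on chow, 82.6 and 49.7 CPM in H and HH, 3.70 and 20.2 CPM in HC and HHC, and 59.0 and 102 CPM in CCH and HCH. All 4 HFD libraries were above the 5 on chow, with log2 fold changes of 1.17 for HFD (adjusted p = 0.193) and -1.24 for weight loss (adjusted p = 0.575). Those 4 were all in set S075, and of the 5 on chow only C was. Tnc was at 0.0 to 2.84 CPM in adipocyte-gated nuclei of 8 libraries and at 53.7 CPM in HCH, where 74 of its 86 UMIs lay in 1 of 374 nuclei.

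Such single nuclei also set the Tnc levels of small classes. In HH, 58 of 71 Tnc UMIs of mural-gated nuclei lay in 1 nucleus, without which the level was 127 CPM in place of 692 CPM. In HHC, 37 of 46 Tnc UMIs of lymphatic-gated nuclei lay in 1 nucleus, without which the level was 57.8 CPM in place of 296 CPM.

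Summed over whole libraries, 4 of the 10 genes rose with HFD and none fell (16.6% of all genes higher, 13.2% lower): Postn (2.71 ± 0.37, SE, edgeR adjusted p = 0.00594), Fn1 (1.04 ± 0.24, adjusted p = 0.0198), Loxl2 (0.91 ± 0.23, adjusted p = 0.0266) and Loxl1 (0.68 ± 0.15, adjusted p = 0.0201). In such sums, more nuclei of a class and more RNA per nucleus cannot be told apart, and progenitor-gated nuclei made up 8.83% to 14.2% of kept nuclei on chow and 18.5% and 20.7% in H and HH. Of gated nuclei, which were fewer in CC and CCC, they made up 20.5% to 23.7% on chow and 26.2% and 28.5% in H and HH. Postn stood at 15.4, 20.9 and 30.9 CPM on chow and at 223 and 111 CPM in H and HH. Fewer genes were called for HFD with the sequencing set in the model, and Postn and Fap with the age of the mice as a block. None was called after weight loss by edgeR (4.10% of all genes higher, 2.35% lower), and DESeq2 called 1 lower, Thbs1. With CC, H or HH left out, Postn was the only HFD call.

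Other genes of the same matrix systems were taken from a list of 68 genes in 5 roles, of which 63 were tested in progenitor-gated nuclei. With HFD, 14 were called higher and 2 lower (9.08% and 5.35% of all genes), and the list's median log2 fold change was 0.11. After weight loss edgeR called none of the 63, and 13 had an unadjusted p under 0.05, where 0.794% of all genes were called higher and 0.114% lower. Among crosslinking enzymes and their helpers 3 of 11 rose, namely Pcolce (an enhancer of procollagen processing, 2.04 ± 0.23), Plod2 (1.06 ± 0.25) and Plod1 (0.71 ± 0.21), both lysyl hydroxylases. Pcolce stood at 24.9, 29.2 and 40.5 CPM on chow and at 153 and 143 CPM in H and HH.

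Of 16 elastic fibre and microfibril genes 6 rose and none fell, the microfibril genes Mfap4 (3.24 ± 0.74) and Mfap2 (3.13 ± 0.51), the TGF-beta binding protein Ltbp2 (1.78 ± 0.45) and Emilin1 (1.51 ± 0.32) by most. Fbn1, the core of the same microfibrils, had a log2 fold change of 0.20 ± 0.28. Of 17 matricellular and adhesive glycoproteins 4 rose, Bgn (biglycan, 2.75 ± 0.33), Ccn2 (1.60 ± 0.41), Thbs2 (1.43 ± 0.38) and Sparc (1.00 ± 0.26), and Npnt fell by 2.72 ± 0.71 on the log2 scale, from 2.14 to 4.57 CPM on chow to under 1 CPM on HFD. Bgn stood at 32.7, 26.4 and 62.7 CPM on chow, 352 and 268 CPM in H and HH, and 43.8 and 78.8 CPM after weight loss.

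Of 12 receptors none rose, and Ddr2, a collagen receptor, fell by 0.76 ± 0.18. Of 7 tested myofibroblast genes 1 rose, Cdh11 (1.41 ± 0.24), and their median log2 fold change was -0.76. Acta2, a marker of the mural gate, was not tested.

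Likeness of pattern was measured by Pearson's r of log2(CPM + 1) over 98 sums of library and class, which share libraries and depth, among 13701 genes. Tnxb and Fbn1 were most like each other (r = 0.86), followed by Fndc1 for Tnxb (0.83) and Slc43a3 for Fbn1 (0.85). Postn was most like Aspn (asporin, 0.71) with Col1a2 among its 3 most alike genes (0.65). Fap was most like Pdgfrb (0.80) and Loxl1 like Col3a1 (0.78). Fn1 was closest to Serpinf1 (0.65), Tnc to Cyp4b1 (0.64), Loxl2 to Fbln2 (0.64), Thbs1 to Tmem9b (0.61) and Lox to Serpinh1 (0.58), which are weaker likenesses. Over the 9 libraries in progenitor-gated nuclei, the levels of Postn and Loxl2 went together (r = 0.92), as did Loxl1 and Fap (0.92) and Fn1 and Thbs1 (0.89), while Tnc and Tnxb did not (0.02).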

How the data were processed

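Nuclei of epididymal adipose tissue from 9 diet groups, 5 pooled mice each, were sequenced with a 10x Genomics assay. The deposited matrices hold whole-number UMI counts per gene and barcode, which the authors made with Cell Ranger 6.1.2 on mm10, introns included, and analysed with Seurat 4.1.0 (submitters' processing notes and methods). By the methods, free RNA estimated with SoupX called for no correction in any mouse library, and the deposited barcodes include those outside the study's stated limits.

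Barcodes with 500 to 3000 genes and at most 40000 UMIs were kept, and 1.92 to 7.28% of those were removed as doublets by Scrublet scores (scanpy 1.11.5), by its own cut or, where that marked under 0.5%, at the expected rate. The expected rate was used in CC, CCC, HC and HHC and the own cut in C, H, HH, CCH and HCH. The doublet rule thus split the libraries as the sequencing sets do. Total UMIs per library ran from 22599619 to 66615262. A nucleus was gated when exactly 1 marker list had at least 3 markers and more UMIs than 2 times the library background allows (Poisson tail of 0.001). That gate on background replaced a plain count of markers after the data were seen. Subsets needed 2 markers, and 2 more than the opposite subset. Totals leave out Malat1 and mitochondrial genes.

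Raw UMIs were summed per library and class and tested with edgeR 4.0.16 (quasi-likelihood, TMM scaling, filterByExpr, Benjamini-Hochberg over all genes tested, threshold 0.05). CCH and HCH, without a second library of their kind, entered the diet fits only as an alternative. Class orders were compared by exact permutation, and ratios of 2 libraries of at least 20 UMIs carry exact conditional intervals. Intervals on CPM are exact Poisson and those on shares exact binomial, at 95%, and all cover counting error only. The edgeR script was tested on simulated data for HFD against chow in progenitor-gated nuclei (dispersion 0.05). It recovered 24 of 99 genes changed 2-fold and 97 of 99 changed 4-fold, with 10 false calls among 14560 genes. An absent call therefore does not show that a level was unchanged. Alternatives included DESeq2 1.42.0, library totals, no filter, the sequencing set as covariate, other gates, each library left out and, added after the data were seen, the age of the mice as a block.

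The 10 genes and all gene lists were chosen with earlier results of these data known. Related genes are named by the rule of at most 4 per role and direction past the threshold, by size of log2 fold change, and the most alike genes by Pearson's r among genes of at least 500 UMIs.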

Additional observations from a re-analysis of the deposited data

Results flagged for a closer look

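Some genes stood on opposite sides of their control after 12 and after 25 weeks of HFD. These are ratios of single libraries, and the differences between them were not tested. Fbn1 in FIP-gated nuclei had a ratio of 1.48 in H with C and of 0.890 in HH with CC, and in endothelial-gated nuclei the same pairs gave 0.636 and 1.59. No lymphocyte-gated level was subtracted from these ratios. That level of Fbn1 was 177 CPM in C and 50.0 CPM in H, against 274 CPM in endothelial-gated nuclei of C. The endothelial-gated ratio of H with C may therefore carry a difference in free RNA, which was not tested. Fn1 in macrophage-gated nuclei was at 0.532 in H with C and at 2.01 in HH with CC. After weight loss, Tnxb in FIP-gated nuclei was at 1.24 in HC with CC and at 0.879 in HHC with CCC, and in APC-gated nuclei at 1.24 and 0.831. Fbn1 summed over whole libraries was at 0.919 in HC with CC and at 1.14 in HHC with CCC. In the HFD pairs, HH and CC belong to different sequencing sets and differ in age, while H and C share both.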

How the results depend on the processing

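Of the 10 genes in progenitor-gated nuclei on HFD, 3 were called, 0 with the sequencing set as covariate, 4 without the filter and 1 to 3 with each library left out. With library totals the median log2 fold change of all genes moved from -0.02 to 0.20, 1638 genes were higher and 495 lower in place of 1350 and 795, and 4 of the 10 were called. For weight loss against chow, 1 was called without the filter in place of 0. For weight loss against HFD, a contrast added after seeing the data, 1 became 0 with library totals, the set covariate, doublets kept or Leiden clusters, 2 with all 9 libraries, 3 with DESeq2, 4 without the filter and 0 to 2 with libraries left out.

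Adipocyte-gated nuclei on HFD went from 0 calls to 1 with library totals, the set covariate, doublets kept or 1 more marker, 2 without the filter, 3 without the upper limit on genes and 0 to 1 with libraries left out, and after weight loss to 1 without the filter. Macrophage-gated nuclei on HFD went from 3 to 4 with DESeq2 (2 higher, 2 lower), 1 with the set covariate and 0 to 5 with libraries left out, and after weight loss from 0 to 1 with DESeq2, without the filter or without the upper limit, and 0 to 1 with libraries left out. Mesothelial-gated nuclei on HFD went from 2 to 0 with DESeq2 or doublets kept, 1 with the set covariate, 3 without the filter and 0 to 2 with libraries left out. Endothelial-gated nuclei on HFD went from 0 to 1 with DESeq2, the set covariate, all 9 libraries, no upper limit or 1 more marker, 4 without the filter and 0 to 4 with libraries left out. Whole libraries on HFD went from 4 to 2 with the set covariate and 1 to 4 with libraries left out, and after weight loss from 0 to 1 with DESeq2. Where a library left out leaves a state with 1 library, that library is assumed to vary like the other states. The causes were not tested.

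With the lymphocyte-gated level subtracted, genes past a ratio of 2 in progenitor-gated nuclei went from 7 of 10 to 4 of the 8 that could be subtracted in H with C, from 5 of 10 to 4 of 8 in HH with CC, from 2 of 9 to 1 of 8 in HC with CC, from 1 of 9 to 2 of 8 in HHC with CCC and from 1 of 10 to 2 of 9 in HCH with CCH. Set against C in place of CC, HH had 3 in place of 5, and the log2 ratio of Thbs1 turned to -0.23. The log2 ratio of Lox in HCH with CCH turned to -0.77 after subtraction. Small HFD fold changes in progenitor-gated nuclei changed sign: Fbn1 to -0.011 with the set covariate and between -0.40 and 0.62 with libraries left out, Tnxb to -0.024 with Leiden clusters and between -0.063 and 0.21, and Lox between -0.18 and 0.24.

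The contrast of FIP-gated with APC-gated nuclei gave 7 calls, as it did under DESeq2, with 5 without the library block, 8 without the filter and 6 to 7 with libraries left out. No paired analysis was possible by replicate number because the numbers within a state only name libraries. The age of the mice does pair H with C, HC with CC and HHC with CCC, and as a block, added after seeing the data, it gave 5 calls on HFD in progenitor-gated nuclei (Postn, Fn1, Tnc, Loxl1 and Fap), 1 after weight loss against chow (Postn) and 2 against HFD. It gave 1 on HFD in adipocyte-gated, mesothelial-gated and endothelial-gated nuclei, Postn each time, 1 after weight loss in macrophage-gated nuclei (Fn1) and 2 on HFD in whole libraries (Postn and Fap). In this fit HH has no partner, so HFD rests on H with C, and 1 residual degree of freedom is left. Tnc, Lox and Thbs1 rest on few UMIs per class, and values near the lymphocyte-gated level cannot be told from free RNA.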
